A study of Homo sapiens with 6 samples.

Results

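DEAD-box and DEAH-box proteins are RNA helicases, enzymes that use ATP to unwind RNA or to remodel complexes of RNA and protein, and their names come from the amino acids of a conserved ATP-binding motif. DEAD-box members (DDX symbols) mostly open short duplexes locally, while many DEAH-box members (DHX symbols) move along one strand and are switched on by partner proteins with a G-patch. Between them they act at nearly every step in the life of an RNA: transcription, splicing, ribosome assembly, export, translation, decay and the sensing of foreign RNA. Their transcripts were examined here in 143B, an osteosarcoma cell line of human origin. The members are the protein-coding rows of the deposited count table whose symbol begins with DDX or DHX and a digit, 51 genes (35 DDX and 16 DHX) of the 22481 in the table and of its 16114 protein-coding rows. The rule uses no measured value. Family members with other symbols, such as the eIF4A genes, are not among the 51, and DDX39B was not analysed here.

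The samples were 6 wells of one plate, 3 control wells and 3 wells that received celastrol, a triterpene of the plant Tripterygium wilfordii, for 24 h. No dose is given in the labels, nor whether the control wells received a vehicle. All replicates are wells of one plate of one cell line, so the spread behind each p-value is that between wells and may be technical. A poly(A) RNA-seq library was made from each well.

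Libraries held 38.41 to 39.45 M counts and 18778 to 18948 detected genes, so that a gene without counts may stand at up to 0.0781 CPM (counts scaled by library size). Such limits cover counting error only. Of the mesenchymal and osteoblast markers, VIM stood at 3411 CPM, SPARC at 363.7 CPM and RUNX2 at 33.94 CPM in controls, whereas COL1A2 had no count in any control library and SP7 averaged 0.0873 CPM. Of the 7 markers on that list, 5 were tested: VIM (log2 fold change -0.42), RUNX2 (-0.90) and ALPL (-1.18) were lower with celastrol, COL1A1 (0.66) was higher, and SPARC was not called. Their summed share of counts was 0.298% with celastrol and 0.376% in controls. Of the epithelial markers, KRT8 and KRT18 stood at 362.4 and 961.7 CPM in controls and KRT8 was lower with celastrol (-0.24), while KRT18 (-0.02) was not called. EPCAM stood at 6.044 CPM in controls and 6.886 CPM with celastrol, with every celastrol well above every control well, and was not called (0.19, adjusted p = 0.342). The fourth marker, CDH1, averaged 0.00866 CPM in controls and had no count with celastrol. Leukocyte and endothelial markers with a row averaged at most 0.411 CPM in either group. The part of these markers in the results on helicases was not tested. In bulk RNA, fewer cells with a transcript and less of it per cell cannot be told apart.

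Gene positions were taken from RefSeq (GRCh38.p14), and the value after a gene's levels is the log2 fold change of celastrol over control with its standard error (SE). Celastrol wells were compared with control wells to find which helicase transcripts differ after treatment. Most of those that differed were more abundant with celastrol. Of the 51 genes, 48 were abundant enough to be tested, and a gene was called when its adjusted p was under 0.05 in edgeR's quasi-likelihood test across all 15387 tested genes. Celastrol wells were higher for 25 of the 48 (52.1%) and lower for 8 (16.7%), and 15 were not called. Over all tested genes 23.6% were called higher and 24.8% lower. Among the 10079 genes at least as abundant as the least abundant tested helicase, a comparison set chosen after the data were seen, the shares were 29.2% and 27.2%. The median log2 fold change of celastrol over control was 0.185 for the helicases (quartiles 0.0329 and 0.467) and -0.000237 for all tested genes. With limma run on log2(FPKM + 1) instead, 26 helicases were higher and 4 lower. Omitting any 1 of celastrol replicates 1 and 3 and control replicates 2 and 3 left 5 lower. The shares over all tested genes above are from edgeR on all libraries, and none is given here for these alternatives.

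Together the 51 genes took 0.583%, 0.582% and 0.581% of the counts in celastrol replicates 1, 2 and 3, against 0.496%, 0.492% and 0.483% in control replicates 1, 2 and 3. Every celastrol library was above every control library. The 3 celastrol values lay above the 3 control values in all 25 genes called higher and in DDX1, 26 of 48 helicases, against 28.4% of all tested genes. They lay below in 5 of the 8 genes called lower and in DHX30, against 28.6% of all genes, so that 56.9% of all genes had groups apart in one direction or the other. The changes were mostly modest: 6 helicases (DDX28, DDX39A, DHX9, DDX3X, DDX6 and DDX46) were called at least 1.5-fold higher, a class of 8.64% of all genes, and DDX60 alone at least 1.5-fold lower, a class of 12.3%. DDX genes were 19 higher (57.6%) and 7 lower (21.2%) of 33 tested, with a median of 0.214. DHX genes were 6 higher (40%) and 1 lower (6.67%) of 15, with a median of 0.132. Called shares over all tested genes were 23.6% higher and 24.8% lower.

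**Figure D1:**
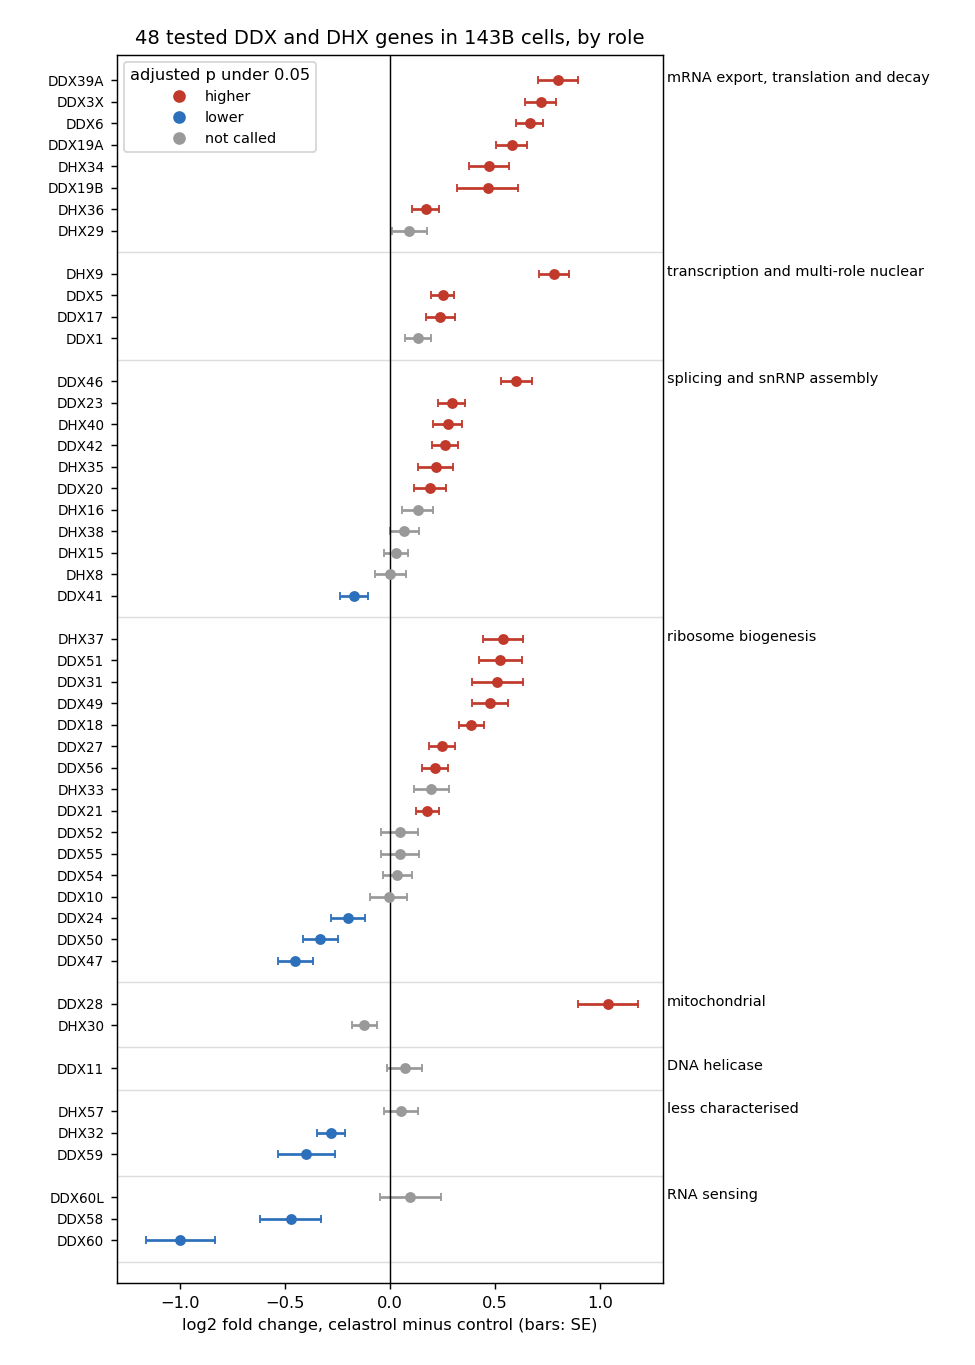
Log2 fold change (celastrol minus control, x axis) with its standard error for the 48 tested DDX and DHX genes, grouped by role, with genes called higher in red, lower in blue and not called in grey. The export, translation and decay group lies at or above 0.09 throughout, while the RNA-sensing genes DDX58 and DDX60 are among the lowest.

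Levels per length of transcript, in FPKM (fragments scaled by gene length and library size), spanned a wide range in control wells. DDX5 was the most abundant at 121 ± 8.53 FPKM (SD, n = 3), followed by DHX15 at 82.5 ± 2.04 and DDX21 at 72.1 ± 1.96. DDX1 (61.5 ± 0.556) and DDX17 (61.1 ± 7.14) came next and did not differ beyond their spread. DDX60L, at 1.01 ± 0.103 FPKM, was the lowest of the tested genes. The 3 untested genes were nearly absent. DDX25, a testis helicase, had 1 count in celastrol replicate 1 and no other. DDX4, the germ cell helicase VASA, had 10 counts in control replicate 2, 2 in control replicate 3 and none elsewhere. DHX58, which encodes the RNA sensor LGP2, had 0, 14 and 9 counts with celastrol and 2, 1 and 5 in controls. The plot of change against level shows no tested helicase among the least abundant tested genes: 10079 of the 15387 were at least as abundant as the lowest tested helicase.

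**Figure D2:**
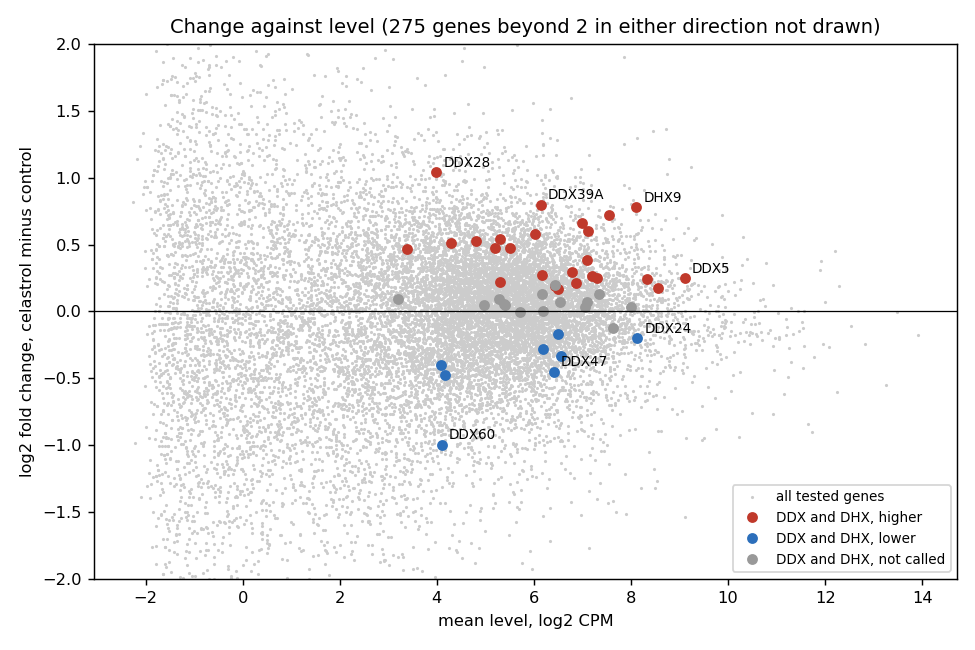
Log2 fold change (y axis) against mean log2 CPM (x axis) for all 15387 tested genes (small grey points; 275 genes beyond 2 in either direction are not drawn) and the 48 tested DDX and DHX genes, with genes called higher in red, lower in blue and not called in larger grey points. The largest rise (DDX28) and the largest fall (DDX60) of the helicases are both at a low level for this family, while DHX9 is among the abundant helicases.

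Helicases of mRNA export, translation and decay carry finished messages out of the nucleus and govern their use. Of 8 tested genes, 7 were higher and 0 lower by edgeR, with a median log2 fold change of 0.526. None was lower by DESeq2 or limma-voom either, nor when p was left unadjusted (0 of 8), but these used the same wells. Over all tested genes 23.6% were called higher and 24.8% lower by edgeR. DDX39A (chr19:14408798-14419383) encodes a close relative of the export helicase UAP56. It stood at 92.7, 88.6 and 86.4 CPM in celastrol replicates 1, 2 and 3 and at 60.9, 46.1 and 46.8 CPM in the control wells, in the same order (log2 fold change 0.80 ± 0.094 SE, adjusted p = 2.95e-06). Control replicate 1 was the control nearest the celastrol wells, and the groups did not overlap. DDX3X (chrX:41333308-41364472), whose product helps initiate translation of structured mRNAs, stood at 228, 241 and 227 CPM with celastrol and at 159.5, 132 and 132 CPM in controls (0.72 ± 0.073, adjusted p = 4.64e-07). Here too control replicate 1 was the highest control, below all celastrol wells.

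DDX6 (chr11:118747763-118791744), the helicase of processing bodies that links translational repression to decapping, stood at 158, 158 and 151 CPM with celastrol and 103, 98.5 and 93.1 CPM in controls (0.66 ± 0.064, adjusted p = 2.39e-07). The wells within each group lay close together and the groups were far apart. The nuclear pore helicase gene DDX19A (chr16:70346903-70373383; log2 fold change 0.58 ± 0.074, adjusted p = 5.11e-06) went from 52.23 ± 3.28 to 78.08 ± 1.96 CPM (SD, n = 3). Its neighbouring paralogue DDX19B (log2 fold change 0.46) also rose, at a level of 8.768 to 12.1 CPM, and omitting celastrol replicate 1 ended that call (adjusted p = 0.0716). A readthrough gene model shares 23.8% of the exon bases of DDX19A and 15.7% of those of DDX19B, so reads of the pair may be divided between them. DHX34, a factor of nonsense-mediated decay, rose (0.47 ± 0.097, adjusted p = 0.000588).

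DHX36, which resolves G-quadruplexes, rose little (0.17 ± 0.065, adjusted p = 0.0385). Its wells stood at 94.7, 99.1 and 93.6 CPM with celastrol and 84.7, 86.2 and 84.7 CPM in controls. The groups did not overlap, but the call was lost on leaving out any 1 library except control replicate 1 (adjusted p of 0.0735 to 0.129). It was also lost with no filter on low counts and with at least 10 CPM in 3 libraries required. Leaving out both celastrol replicate 2 and control replicate 1 ended it too. DHX29, a helicase of the scanning small ribosomal subunit, stood at 39.77 ± 1.91 CPM with celastrol and 37.31 ± 1.01 CPM in controls and was not called (adjusted p = 0.381).

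Among nuclear helicases with several roles, DHX9 changed most. DHX9 (chr1:182839347-182887982), also named RNA helicase A, unwinds double-stranded RNA and DNA and couples transcription to RNA processing. It stood at 343, 351 and 354 CPM in celastrol replicates 1, 2 and 3 and at 229.0, 192 and 189 CPM in the control wells (0.78 ± 0.069, adjusted p = 9.45e-08). Control replicate 1 was again the highest control, and all celastrol wells were far above it. The paralogues DDX5 and DDX17, coregulators of transcription, splicing and microRNA processing, rose by less. DDX5 went from 504.9 ± 32.1 to 600.4 ± 10.9 CPM (0.25 ± 0.057, adjusted p = 0.00142). DDX17 went from 295.2 ± 32.5 to 348.4 ± 3.48 CPM (0.24 ± 0.069, adjusted p = 0.00827). DDX1, which takes part in tRNA ligation, was at 154.9 ± 1.02 CPM in controls and 169.9 ± 6.49 CPM with celastrol and was not called (0.13, adjusted p = 0.0744). It passed with library size alone (adjusted p = 0.0209) and by limma with log2(FPKM + 1) (0.0151).

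The start sites of the 3 genes with the largest rises and of the one with the largest fall are shown by the 250 bases that precede each, 5′ to 3′ along the gene, from the RefSeq promoter table on GRCh38.p14. They lie at chr16:68023233-68023482, minus strand (DDX28), chr19:14419384-14419633, minus strand (DDX39A), chr1:182839097-182839346, plus strand (DHX9) and chr4:168318753-168319002, minus strand (DDX60, at a start site inside the annotated gene). Capitals mark matches, on either strand, to any of 8 motifs. The E-box was searched as CACGTG, the ETS motif as CCGGAAG, the CCAAT box as its name spells and the GC box as GGGCGG. The TATA box was searched as TATAAA, the core of the heat shock element as GAANNTTC, the cyclic AMP response element as TGACGTCA and the core of the interferon-stimulated response element as AAACTGAAA. Different motifs do not overlap one another in the promoters shown.
DDX28: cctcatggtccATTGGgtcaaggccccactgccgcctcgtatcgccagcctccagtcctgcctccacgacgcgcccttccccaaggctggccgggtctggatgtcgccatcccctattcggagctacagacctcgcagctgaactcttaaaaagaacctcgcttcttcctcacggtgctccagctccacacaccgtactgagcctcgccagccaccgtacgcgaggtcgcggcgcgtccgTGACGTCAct
DDX39A: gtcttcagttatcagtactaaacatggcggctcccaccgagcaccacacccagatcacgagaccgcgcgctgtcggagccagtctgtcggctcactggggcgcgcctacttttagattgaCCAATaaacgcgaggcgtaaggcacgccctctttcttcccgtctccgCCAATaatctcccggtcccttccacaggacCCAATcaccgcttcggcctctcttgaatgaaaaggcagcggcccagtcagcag
DHX9: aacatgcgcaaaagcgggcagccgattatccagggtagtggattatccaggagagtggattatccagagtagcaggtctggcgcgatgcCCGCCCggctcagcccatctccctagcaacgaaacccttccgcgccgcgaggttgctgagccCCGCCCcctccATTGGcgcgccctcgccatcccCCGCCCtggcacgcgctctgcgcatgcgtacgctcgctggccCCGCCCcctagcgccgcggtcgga
DDX60: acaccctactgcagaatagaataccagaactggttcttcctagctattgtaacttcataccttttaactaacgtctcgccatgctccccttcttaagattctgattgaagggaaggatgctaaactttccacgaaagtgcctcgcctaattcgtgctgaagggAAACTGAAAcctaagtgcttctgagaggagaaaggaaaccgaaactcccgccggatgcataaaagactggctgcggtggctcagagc

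In the promoter of DDX28, TGACGTCA begins 10 bases before the start site. The DDX39A promoter holds CCAAT 3 times, and that of DHX9 holds 4 GC boxes and 1 inverted CCAAT. In the DDX60 promoter, AAACTGAAA begins 87 bases before the start site. Promoters were given for 46 of the 51 helicases, and TGACGTCA was in 5 of them (DDX10, DDX19A, DDX28, DDX51 and DHX36), 10.9% against 2.77% of 12291 promoters of tested genes and 1.77% of all 27305 promoters. CCGGAAG was in 14 (30.4% against 14.9% and 8.82%), CACGTG in 7 (15.2% against 8.72% and 6.49%) and CCAAT in 20 (43.5% against 34.3% and 33%). GGGCGG was in 26 (56.5% against 66.4% and 42.3%). AAACTGAAA was in DDX60 alone (2.17% against 0.366% and 0.56%), TATAAA in DHX32 (2.17% against 5.55% and 11.1%) and GAANNTTC in DDX4 (2.17% against 3.93% and 5.85%). These are matches of letters in one window, not sites.

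DDX28 (chr16:68020916-68023232), which encodes a mitochondrial helicase needed for assembly of the mitochondrial ribosome, had the largest rise of the 48. It stood at 22.3, 19.5 and 22 CPM in celastrol replicates 1, 2 and 3 and at 12.6, 10.2 and 8.21 CPM in the control wells (1.04 ± 0.14, adjusted p = 1.11e-05). The lowest celastrol well was above the highest control. Exons of DUS2, on the opposite strand, cover 22.5% of its exon bases, and it is not given whether counting used the strand, so its level is uncertain. DUS2 itself was at a log2 fold change of -0.19 (adjusted p = 0.131). In helicases other than DDX28, DDX19A, DDX19B, DDX47 and DHX32, no neighbouring gene covered more than 9.89% of the exon bases. DHX30, a helicase of mitochondrial RNA granules, was at 188.7 ± 6.24 CPM with celastrol and 205.3 ± 8.41 CPM in controls. It was not called (-0.12, adjusted p = 0.102), although its groups did not overlap, and it passed without control replicate 1 (adjusted p = 0.04).

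**Figure D3:**
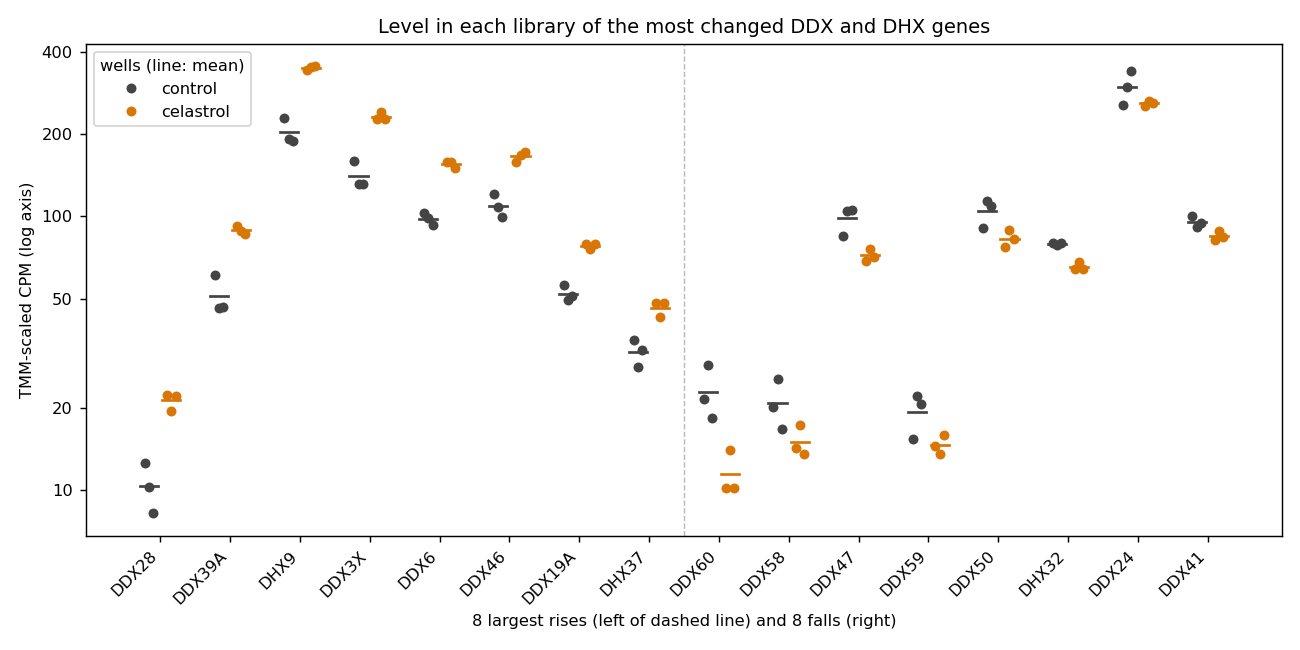
Level in each library (TMM-scaled CPM, log y axis) of the 8 genes with the largest rises and the 8 called lower, with control wells in dark grey, celastrol wells in orange and group means as lines. The wells separate by group in all 8 rises, while they overlap for DDX58, DDX59 and DDX24.

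Spliceosomal helicases drive the rearrangements between assembly, catalysis and disassembly of the splicing machinery. Of the 11 tested genes, 6 (54.5%) were higher and 1 (9.09%) lower, with a median of 0.191. Over all tested genes the shares were 23.6% and 24.8%. DDX46 (chr5:134758779-134831121), which acts on the U2 snRNP before the spliceosome is activated, rose most. It stood at 158, 168 and 172 CPM with celastrol and 121, 108 and 99.2 CPM in controls (0.60 ± 0.074, adjusted p = 3.39e-06), with no overlap. DDX23, of the U5 snRNP (0.29), DHX40 (0.27) and the U2-linked DDX42 (0.26) rose by less, and their calls held under every alternative. DHX35 (0.22, adjusted p = 0.0355) and DDX20 (0.19, adjusted p = 0.043), the latter a subunit of the SMN complex, were near the threshold. The DHX35 call was lost without any 1 library except control replicate 1 (adjusted p of 0.0764 to 0.122) and with no low-count filter. That of DDX20 did not survive the omission of celastrol replicate 1 or 2, or of control replicate 1 or 3 (0.0585 to 0.227). It was also lost with at least 10 CPM in 3 libraries required, and without both celastrol replicate 2 and control replicate 1.

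A set of 4 DEAH-box helicases of the splicing cycle, DHX8, DHX15, DHX16 and DHX38, was not called. DHX16 (0.13), DHX38 (0.07) and DHX8 (0.0023), which drive activation, the second step and release of the mRNA, had adjusted p of 0.145, 0.425 and 0.983, and DHX16 passed without control replicate 1 (0.0374). DHX15, which takes spent spliceosomes apart, was at 256.4 ± 7.59 CPM with celastrol and 251.1 ± 6.28 CPM in controls (0.03 ± 0.057, adjusted p = 0.694). DDX41, which associates with the catalytic spliceosome and is also described as a DNA sensor, was lower, at 33.4, 35.7 and 33.8 FPKM with celastrol and 39.5, 36.2 and 36.9 FPKM in controls (-0.17 ± 0.067, adjusted p = 0.043). Its groups did not overlap, but the call was lost on omitting celastrol replicate 1 or 3, or control replicate 1 or 3 (adjusted p of 0.0646 to 0.152). It was also lost with library size alone (0.118), with no filter on low counts, and by limma on log2(FPKM + 1) or log2(FPKM + 0.1).

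Ribosome biogenesis helicases act in the nucleolus, where they release small nucleolar RNAs from pre-ribosomal RNA and remodel the maturing subunits. Of 16 tested, 8 (50%) were higher and 3 (18.8%) lower, with a median of 0.188. Over all tested genes the shares were 23.6% and 24.8%. The largest rises were in DHX37, of the small subunit precursor (0.54 ± 0.096, adjusted p = 0.000157), DDX51 (0.53 ± 0.10, adjusted p = 0.000378), DDX31 (0.51 ± 0.12, adjusted p = 0.00212) and DDX49 (0.48 ± 0.087, adjusted p = 0.000203). DHX37 (chr12:124946826-124989131) stood at 48.1, 42.9 and 48.4 CPM with celastrol and 35.3, 28.1 and 32.5 CPM in controls, with no overlap. The more abundant DDX18 (0.39), DDX27 (0.25) and DDX56 (0.21) rose as well, and omitting celastrol replicate 3 ended the DDX56 call (adjusted p = 0.0577). DDX10, DDX52, DDX54 and DDX55 lay between -0.0055 and 0.0475 and were not called. DHX33 (0.20, adjusted p = 0.0629) was not called either, but passed without celastrol replicate 2 or control replicate 3. It also passed with library size alone, with no filter on low counts, and without both celastrol replicate 2 and control replicate 1.

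The paralogues DDX21 and DDX50, neighbours on chromosome 10, went opposite ways. DDX21 (chr10:68956170-68985068), a nucleolar helicase that couples RNA polymerase I and II transcription to rRNA processing, stood at 398, 389.7 and 406 CPM with celastrol and 339, 356 and 360.3 CPM in controls (0.18 ± 0.054, adjusted p = 0.0115). That call ended on omission of celastrol replicate 1 (adjusted p = 0.0552) or 3 (0.0711). DDX50 (chr10:68901315-68946847) stood at 77.4, 88.9 and 82.9 CPM with celastrol and 90.6, 114 and 109 CPM in controls (-0.33 ± 0.084, adjusted p = 0.00345). The groups did not overlap in either gene, and for DDX50 celastrol replicate 2 and control replicate 1 lay close together.

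DDX47 (chr12:12813346-12829981), a helicase of early pre-rRNA processing, had the largest fall of the ribosome group. It stood at 68.6, 76.2 and 71.2 CPM with celastrol and 85, 105 and 105.5 CPM in controls (-0.45 ± 0.083, adjusted p = 0.000233), with no overlap. On the same strand APOLD1 shares 36.5% of its exon bases, at a level of 1.73 CPM in controls. DDX24 stood at 254, 265 and 261 CPM with celastrol and 257, 298 and 341 CPM in controls (-0.20 ± 0.080, adjusted p = 0.0487). The groups overlapped, and the call was lost without any 1 library except control replicate 1 (adjusted p of 0.0802 to 0.288), with library size alone (0.103), by limma-voom (0.058) and by limma with log2(FPKM + 1) (0.203). Without control replicate 3 its log2 fold change was -0.09. OTUB2, on the opposite strand, covers 7.41% of its exon bases and was itself lower (-0.74).

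The RNA-sensing helicases recognise viral RNA in the cytoplasm, and their genes are induced by interferon. Of 3 tested, 0 were higher and 2 lower by edgeR. None was higher by DESeq2 or limma-voom either, nor when p was left unadjusted (0 of 3), but these used the same wells. Over all tested genes 23.6% were called higher and 24.8% lower by edgeR, and 3 genes are too few to show a trait of the group. DDX60 (chr4:168216294-168325979), a factor of the antiviral response, stood at 10.1, 13.95 and 10.1 CPM in celastrol replicates 1, 2 and 3 and at 21.4, 28.6 and 18.3 CPM in the control wells (-0.998 ± 0.17, adjusted p = 0.000132). It was the largest fall among the 48, with no overlap between groups. Its neighbour and paralogue DDX60L was at 9.433 ± 0.86 CPM with celastrol and 8.828 ± 0.848 CPM in controls and was not called (0.10, adjusted p = 0.614). DDX58 (chr9:32455302-32526196), which encodes the RNA sensor RIG-I, stood at 14.2, 17.2 and 13.5 CPM with celastrol and 20.1, 25.4 and 16.7 CPM in controls (-0.47 ± 0.15, adjusted p = 0.012). Celastrol replicate 2 overlapped control replicate 3. The DDX58 call ended on omission of celastrol replicate 3 (adjusted p = 0.061) or control replicate 2 (0.111), and with limma run on log2(FPKM + 1) (0.075).

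Of the remaining genes, DHX32 and DDX59 were lower. DHX32 is a DEAH-box protein of uncertain function. It stood at 64.3, 68.1 and 64 CPM with celastrol and 79.8, 78.8 and 80 CPM in controls (-0.28 ± 0.068, adjusted p = 0.00247), with no overlap. BCCIP, on the opposite strand, covers 10.4% of its exon bases. DDX59, which is linked to Hedgehog signalling and ciliary disease, stood at 14.5, 13.6 and 15.8 CPM with celastrol and 15.3, 22 and 20.6 CPM in controls (-0.40 ± 0.13, adjusted p = 0.0208). Its groups overlapped, and the call was lost on omitting celastrol replicate 1 or 2, or control replicate 2 or 3 (adjusted p of 0.0587 to 0.127), and by limma with log2(FPKM + 1) (0.0792). DHX57 (0.05, adjusted p = 0.624) was not called. DDX11, a DNA helicase of sister chromatid cohesion with near-identical copies in the genome, was not called (0.07, adjusted p = 0.512), and it passed without control replicate 1 (0.049).

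**Figure D4:**
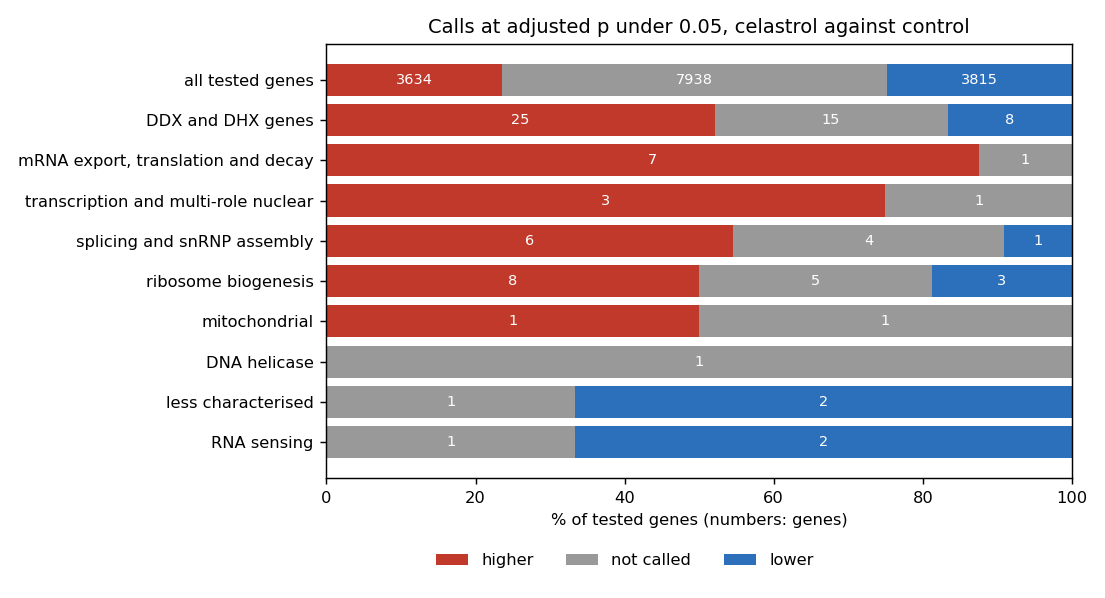
Share of tested genes (x axis, %) called higher (red), not called (grey) or called lower (blue) for all tested genes, for the 48 DDX and DHX genes and for each role, with the number of genes in each bar. The bars show 7 of 8 export, translation and decay genes higher, and 2 of 3 RNA-sensing genes lower.

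Helicases related to these by sequence carry other symbols. Of 19 tested, with a median of 0.0701, 6 were higher and 2 lower, beside 23.6% and 24.8% of all tested genes. The higher ones were 2 without celastrol replicate 1 and 1 without celastrol replicate 3, and the lower ones were 4 without control replicate 1. The largest change and the most abundant call were both falls. EIF4A2, a DEAD-box translation initiation factor, stood at 382, 425 and 379 CPM with celastrol and 592, 694 and 704 CPM in controls (-0.75 ± 0.068, adjusted p = 1.8e-07). EIF4A1 was not analysed here. HELZ2, an interferon-induced nuclear receptor coactivator, went from 99.98 ± 6.21 to 55.87 ± 7.05 CPM (-0.84 ± 0.086, adjusted p = 5.59e-07). EIF4A3, the exon junction complex helicase, was not called (-0.09, adjusted p = 0.226), and neither was IFIH1, which encodes the RNA sensor MDA5, at 5.117 ± 1.09 CPM with celastrol and 6.601 ± 1.82 CPM in controls (adjusted p = 0.165).

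Partners of the helicases were taken from lists by function, and their shares stand beside 23.6% higher and 24.8% lower over all tested genes. G-patch proteins, several of which activate DEAH helicases, were 7 higher (35%) and 2 lower (10%) of 20, with a median of 0.027. GPATCH4 rose from 34.37 ± 1.61 to 74.86 ± 9.36 CPM (1.12 ± 0.090, adjusted p = 3.06e-08) and had the largest change of that list, and SON, a splicing cofactor, had the most abundant call (0.17 ± 0.056, adjusted p = 0.0193). Without celastrol replicate 3 or control replicate 2, 4 were higher, and without any 1 library except control replicate 1, 1 was lower. The SON call was lost on omitting celastrol replicate 1 or 3, or control replicate 2 (adjusted p of 0.0576 to 0.0991).

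The 14 partners of mRNA export include the TREX complex and the DDX19 activator GLE1. Of these, 7 (50%) were higher and 1 (7.14%) lower, with a median of 0.155. THOC1, a THO subunit, was at 30.73 ± 2.16 CPM in controls and rose to 43.47 ± 0.654 CPM (0.50 ± 0.086, adjusted p = 0.000118). The export adaptor gene ALYREF rose from 138.1 ± 12.9 to 184.4 ± 6.89 CPM (0.42 ± 0.070, adjusted p = 8.88e-05). The member that fell, THOC6 (-0.24), was not called on omitting celastrol replicate 1 or 3, or control replicate 2. Partners of DDX6 in decapping and repression were 2 higher (16.7%) and 1 lower (8.33%) of 12, with a median of 0.0811. The higher ones were the microRNA effector gene TNRC6A (0.52 ± 0.070, adjusted p = 9.61e-06) and the decapping enhancer gene EDC3 (0.34 ± 0.069, adjusted p = 0.000499). The decapping enzyme gene DCP2 (-0.30) was lower, and not without celastrol replicate 3.

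Partners of DDX3X and eIF4A in translation initiation were 5 higher (45.5%) and 3 lower (27.3%) of 11, with a median of -0.0255. EIF3A, a core subunit of eIF3, rose to 703.4 ± 28.4 CPM from 457.4 ± 44 CPM in controls (0.62 ± 0.065, adjusted p = 6.5e-07). The poly(A)-binding protein gene PABPC1 fell from 2281 ± 91.5 to 1974 ± 97.4 CPM (-0.21 ± 0.052, adjusted p = 0.00306). Without celastrol replicate 1 or control replicate 2, 3 were higher. Partners of DDX20 in the SMN complex, which assembles snRNPs, were 2 higher (25%) and 2 lower (25%) of 8, with a median of -0.0409. Over all tested genes the shares were 23.6% and 24.8%. GEMIN7 rose (0.53 ± 0.12, adjusted p = 0.0017) and STRAP fell (-0.32 ± 0.064, adjusted p = 0.000544). In that list 1 was higher without celastrol replicate 1 or control replicate 2, and 1 was lower with library size alone and without any 1 celastrol replicate or control replicate 2.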

How the data were processed

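RNA of 143B cells was measured by poly(A) RNA-seq in 6 wells, 3 with celastrol and 3 controls. Per the labels' protocols, libraries marked the strand with dUTP and were read from both ends. The build hg38 and the tools DESeq2, edgeR, StringTie 2.1.6, HISAT2 2.2.1 and cutadapt 1.9 are named, without roles, per the submitters' processing notes. The annotation and the way reads were assigned to genes, by strand or not, are not given in the sources used here. Unnormalized whole read counts per gene were deposited by the authors, with FPKM values scaled by gene length and library total. Count and FPKM gave one gene length in every library (within 1e-06) for all 20198 genes with counts in at least 2 libraries.

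Genes were filtered with filterByExpr, scaled by TMM and tested with edgeR 4.0.16 (glmQLFit, robust; R 4.3.3), with Benjamini-Hochberg adjustment over all 15387 genes, at an adjusted p under 0.05. The procedure was tested on simulated data in which far fewer genes changed than the 48.4% called here. That test does not give the error rates of these data. SE is the size of the log2 fold change over the root of the F statistic. CPM is TMM-scaled. Alternatives used limma 3.58.1, DESeq2 1.42.0, other scalings and filters, a replicate block and omitted libraries. The genes with full values are 11 fixed helicases with a row, the 8 largest rises and falls among called ones, and 2 called genes per partner list; others are given briefly. Members, roles, lists and motifs were chosen with earlier results of these data known. Coordinates and promoters are from RefSeq (GRCh38.p14, all 51 members matched by NCBI gene ID), and exon overlaps from GENCODE 29 (GRCh38).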

Additional observations from a re-analysis of the deposited data

How the results depend on the processing

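The count of helicases called lower was 8, and 4 by limma on log2(FPKM + 1) and 4 with a pseudocount of 0.1, and the cause was not tested. Shares of all tested genes under the alternatives are not given here. The count called higher was 25, and 20 to 26 on leaving out each library in turn, with 5 to 8 lower. Over the other alternatives (library size alone, RLE size factors, DESeq2, limma-voom, no filter, at least 10 CPM in 3 libraries, no robust dispersion) 23 to 27 were higher and 6 to 9 lower. Without both celastrol replicate 2 and control replicate 1, an alternative chosen after seeing the data, they were 25 and 8. Of the 33 calls, 19 higher and 4 lower held under all 17 alternatives, no call changed sign, and 10 of 15 uncalled helicases were called under none. With the replicate number as a block, 25 helicases were higher and 8 lower, as without it. Deviations of same-numbered wells correlated at 0.0582, 0.0549 and 0.0341, and each well correlated best with its own number, a hint from the data and not from the design.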

Other observations

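The deposited annotation links the tested helicases to terms that the symbol rule did not use. The term RNA helicase activity was written for 47 of the 48, out of 59 tested genes that carry it. The nucleolus was named for 21 of them (43.8%, against 5.34% of all tested genes), and of these 12 were higher and 3 lower with a median log2 fold change of 0.214. Over all 822 tested nucleolus genes, 279 were higher and 177 lower with a median of 0.0783. For mRNA splicing via the spliceosome, 5 of 9 helicases were higher and 1 lower, beside 77 and 13 of all 177 tested genes with that term. For rRNA processing, 6 of 9 helicases were higher and 1 lower, beside 46 and 15 of 107. For defense response to virus, 4 of 9 helicases were higher and 2 lower, beside 36 and 33 of 148.

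The count table also holds 5 noncoding rows with a DDX or DHX symbol. Those tested were DDX11-AS1 (log2 fold change 0.07), DDX19A-DT (0.43) and DDX59-AS1 (0.09), with adjusted p of 0.872, 0.189 and 0.915, and none was called.

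The median GC content of the 250 bases before the start site was 63.6% for 23 promoters of helicases called higher, 59.6% for 8 called lower and 65.2% for 12291 tested genes.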
